A study of Mus musculus with 84 samples.

Results

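The liver response of male mice to the highest profiled dietary concentration of parathion (PT) was compared with the response to the 2 lower concentrations. A higher concentration was also fed, and the paper left that group out because of morbidity and mortality. The 7 mice fed PT 80 ppm were set against the 7 mice fed PT 20 ppm and the 7 mice fed PT 40 ppm together, giving 21 of the 84 mice of the study. All were B6C3F1 males, a hybrid laboratory strain, 8 weeks old, that ate AIN-93G purified diet containing the pesticide for 7 days. Controls carried no pesticide in the same diet, and the other groups of the study received fenthion or methidathion, 2 further organophosphates. None of these enters a test here, and control levels are given only as a description. The 21 mice were chosen by their labels (agent, dose and RNA isolator): their RNA was isolated by a single laboratory (EA, Expression Analysis Genomic Services), whereas 2 of the 7 control mice were isolated by another (EPA). The mice belonged to experimental blocks 1, 3 and 4, with 2, 3 and 2 PT 80 ppm mice and 4, 6 and 4 lower-dose mice, and block was a covariate in the main fit. The data describe whole liver of a single sex, strain and time point. The paper reports that, in the study that supplied these livers, parathion significantly lowered body weight and liver weight relative to the body. This was seen at PT 80 ppm and also at PT 40 ppm, which is among the lower doses pooled here. Weights are not among the labels, so their part in the results was not tested.

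Parathion is an organophosphate insecticide that cytochromes P450 in the liver convert to paraoxon, the form that inhibits acetylcholinesterase, and to less toxic products. Paraoxon is hydrolyzed by paraoxonase 1 and is bound by butyrylcholinesterase and the carboxylesterases, which are made in large amounts by hepatocytes. The liver meets foreign chemicals with nuclear receptors, among them CAR (Nr1i3), PXR (Nr1i2) and PPAR alpha, which switch on families of P450s, conjugating enzymes, transporters and fatty acid oxidation genes.

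Expression was measured with TempO-Seq, in which pairs of probes ligated on each RNA are counted by sequencing. The 21 mice had total counts of 8621611 to 13460623, and the 3 doses overlapped in depth. Values are given as counts per 1000000 counts of the mouse (CPM). A gene was tested where its median count over all 84 mice was above 8, which left 10415 genes. Differentially expressed genes (DEGs) had an edgeR quasi-likelihood p adjusted by the Benjamini-Hochberg method under 0.05 and a change of at least 2-fold. Genes that passed the adjusted p are said to have risen or fallen whatever their fold, and log2 fold changes are PT 80 ppm minus the lower doses, given ± SE. Hepatocyte markers such as Alb and Ttr were abundant in every mouse: the 14 measured summed to 66589 to 77224 CPM at PT 20 ppm, 71103 to 78108 CPM at PT 40 ppm and 72786 to 95097 CPM at PT 80 ppm. These sums include Cyp2e1 and Ass1, which rose at PT 80 ppm as given below, and the median log2 fold change of the list was 0.06. The samples are separate mice per the labels. The paper housed several mice in a cage and randomized whole cages to the treatments. Cage is not among the labels, so each mouse was treated as independent and an effect of cage was not tested.

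At PT 80 ppm, 103 genes were higher and 130 lower than at the lower doses, 233 DEGs in all or 2.24% of the genes tested (0.989% higher and 1.25% lower). Without the fold limit 1764 genes passed (16.9%), 939 of them higher (9.02%) and 825 lower (7.92%), and the median log2 fold change of all genes tested was -0.007. Genes of drug metabolism, amino acid breakdown and the glucocorticoid response were found among those that rose. Acute phase, cholesterol synthesis, fatty acid synthesis and male-biased genes were found among those that fell. In 51 genes (0.49%) all 7 PT 80 ppm mice were above all 14 lower-dose mice, and in 14 genes (0.134%) all 7 were below. Of the DEGs, 9 higher and 3 lower genes had such separation. Whole liver was measured, so fewer cells of a type and less RNA per cell cannot be told apart in any of these results.

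The size of the response differed between mice and between blocks, and it bears on every group of genes below. Over the 233 DEGs, the median log2 deviation of a PT 80 ppm mouse from the lower-dose mice, in the direction of the DEG, was 1.82 and 1.38 in mice 1 and 2 (block 1), 1.07, 0.62 and 1.07 in mice 3 to 5 (block 3), and 0.55 and 0.68 in mice 6 and 7 (block 4). These deviations describe the mice that chose the DEGs and are no test. The first principal component of the 21 mice held 33.6% of the variance and the second 12.3%, and on the first, PT 80 ppm mice 1 and 2 lay at 73.9 and 37.7 while the lower-dose mice lay between -22.4 and 3.84. PT 80 ppm mice 4 and 6, at 2.76 and -2.03, lay among the lower-dose mice on that axis. Mouse 1 also held the highest level of adipocyte and pancreas markers, with a summed 41.4 CPM against 13.8 to 25.2 CPM in the other PT 80 ppm mice and 9.91 to 20.3 CPM in the lower-dose mice. In it the adipocyte genes Adipoq and Cfd stood at 6.16 and 2.57 CPM, while no lower-dose mouse was above 0.152 CPM for Adipoq or 0.159 CPM for Cfd. The part of such cells in the results was not tested.

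**Figure D1:**
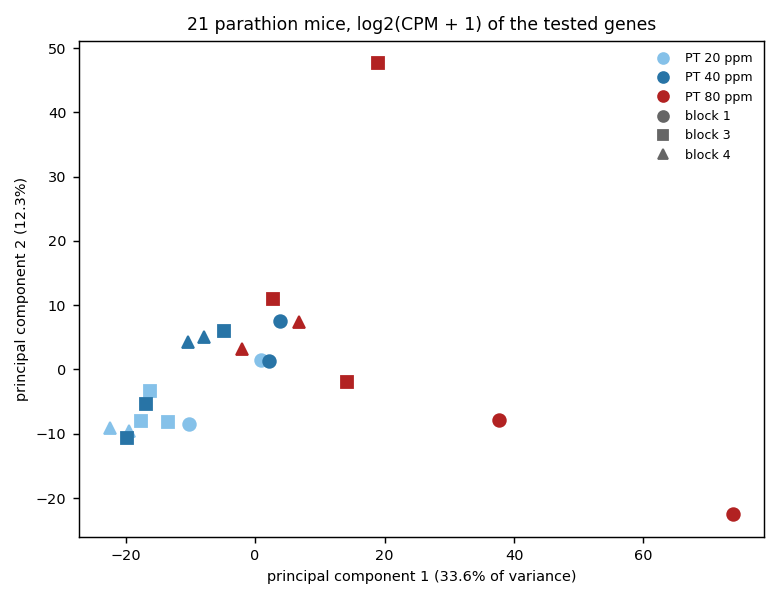
The 21 parathion mice on the first 2 principal components of log2 CPM of the tested genes (axes in component units with the percent of variance); each point is 1 mouse, with its dose and block marked. PT 80 ppm mice 1 and 2 of block 1 lie farthest out on the first component, at 73.9 and 37.7.

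A block by dose term tested whether the PT 80 ppm effect differed between blocks. It passed for 419 genes (4.02%), of which 45 were DEGs, and the effect was largest in block 1 for 324 of them, in block 3 for 87 and in block 4 for 8. Fitted within blocks, block 1 gave 320 higher and 396 lower DEGs, block 3 gave 58 and 87, and block 4 gave 4 and 1 (1154 genes at an unadjusted p under 0.05). These fits hold 6 or 9 mice each, so their counts of calls also carry that number. The sign within each block was that of the pooled fit for 232, 232 and 216 of the 233 DEGs in blocks 1, 3 and 4, with median sizes of 2.18, 1.18 and 0.87 on the log2 scale. Among all genes, which share the same mice, the sign was shared for 80.1%, 78.8% and 67.9%. With blocks 3 and 4 alone, a fit chosen after seeing the data, 102 genes were DEGs (0.979%; 50 higher and 52 lower), and 80 of these were among the 233. In that fit 277 genes rose (2.66%) and 202 fell (1.94%), and its counts are given beside each group of genes below.

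**Figure D2:**
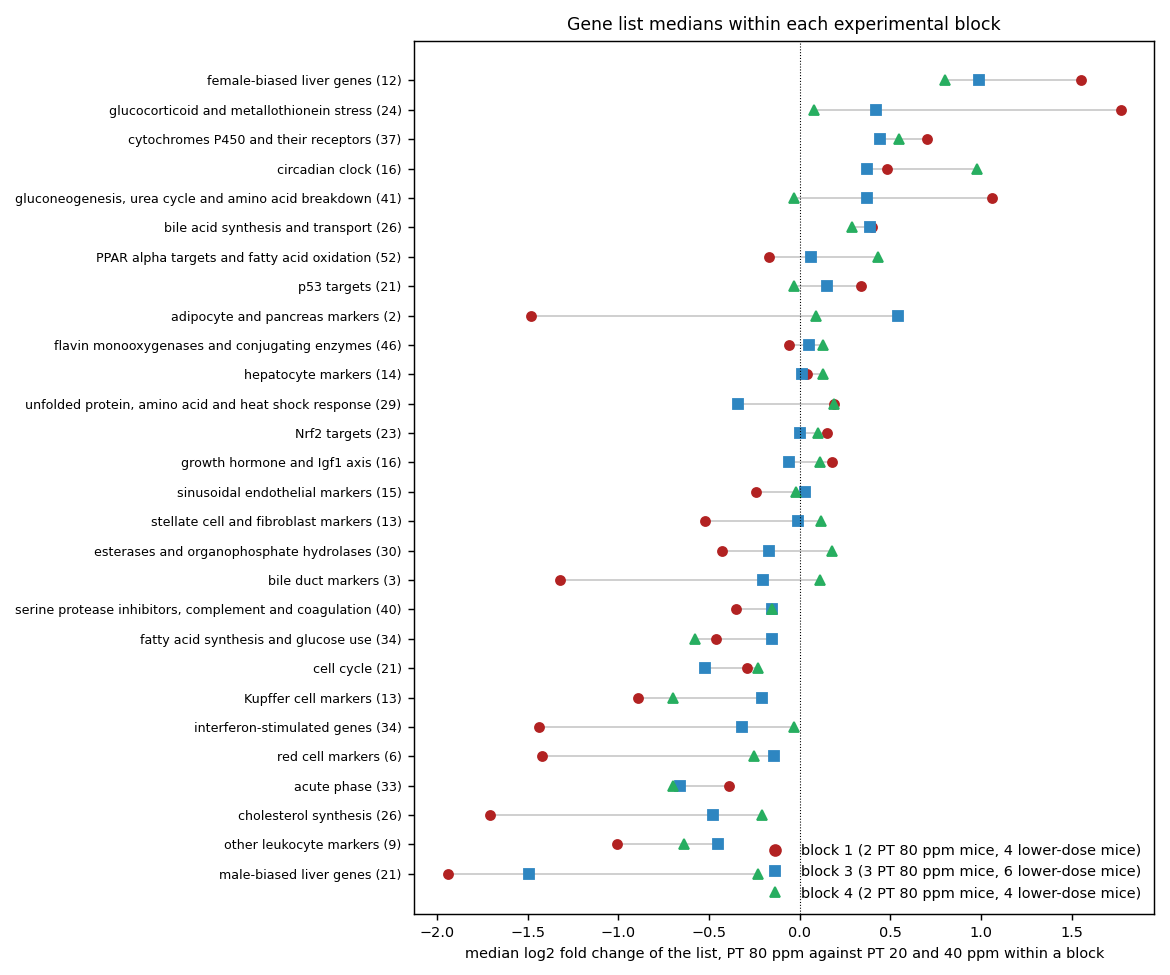
Median log2 fold change (PT 80 ppm minus PT 20 and 40 ppm) of the tested members of each gene list, fitted within block 1, block 3 and block 4 (1 symbol for each block). P450 and bile acid genes have similar medians in the 3 blocks, whereas cholesterol synthesis runs from -1.71 in block 1 to -0.21 in block 4.

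The 2 lower doses were pooled in the main fit, so they were also compared with each other. With edgeR, no gene of 10415 passed for PT 40 ppm against PT 20 ppm (0% called), 417 genes had an unadjusted p under 0.05 (4%), and DESeq2 called 1 gene. PT 80 ppm differed from PT 40 ppm in 156 DEGs (1.5%) and from PT 20 ppm in 296 (2.84%). Those 2 comparisons share the PT 80 ppm mice, and 124 genes stood in both lists, which is 79.5% of the first and 41.9% of the second. Some DEGs of the main fit named below did not pass against PT 40 ppm alone (edgeR adjusted p = 0.0513 to 0.289). They include Scd1, Lepr, Cd4, Saa3, Chrna4, Steap4, Trp53inp1, Orm2, Npas2, Per3 and Ccl2. For 170 of the 233 DEGs (73%), against 56.4% of all genes, the PT 40 ppm level lay on the PT 80 ppm side of the PT 20 ppm level. Both differences in that count use the PT 20 and 40 ppm mice, and the median step from 20 to 40 ppm was 0.20 on the log2 scale, against 1.33 for PT 80 ppm over the lower doses.

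Cyp4a10, a fatty acid omega-hydroxylase and standard PPAR alpha target (ENSMUSG00000066072, chromosome 4, 115375461 to 115390849 of GRCm39, plus strand), rose more than any other tested gene. Its lowest, median and highest levels were 0.0886, 1.76 and 4.09 CPM at PT 20 ppm, 2.20, 3.25 and 9.90 CPM at PT 40 ppm, and 57.4, 214 and 911 CPM at PT 80 ppm. All 7 PT 80 ppm mice were above all 14 lower-dose mice, and the controls lay at 0.225 to 3.04 CPM. The log2 fold change was 6.14 ± 0.50 (edgeR adjusted p = 4.79e-07), with 6.82, 4.77 and 7.14 within blocks 1, 3 and 4. The neighboring gene Cyp4a14, which encodes a closely related enzyme, did not reach the count limit over the 84 mice. Cyp4a14 was at 0 to 0.0856 CPM at PT 20 ppm, at 0.0796 to 0.985 CPM at PT 40 ppm and at 16.2 to 203 CPM, with a median of 28.8 CPM, at PT 80 ppm. The 7 PT 80 ppm mice again lay above every lower-dose mouse. Fitted without the count limit, its log2 fold change was 8.03 ± 0.46 (edgeR adjusted p = 1.45e-10). Counting could split reads between these similar genes.

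Of 52 tested PPAR alpha targets and fatty acid oxidation genes, Cyp4a10 among them, 9 rose, 4 fell and 39 did not pass. As DEGs there were 4 higher and 3 lower, with a list median of 0.18, and 8 rose and 0 fell in blocks 3 and 4. Over all genes tested 9.02% rose, 7.92% fell and 2.24% were DEGs. Acot1, a cytosolic acyl-CoA thioesterase, rose by 1.66 ± 0.31 (edgeR adjusted p = 0.00162), from 1.22 to 6.49 CPM over the lower-dose mice to 2.31 to 20.9 CPM. Its relative Acot3, under the count limit, lay at 0 to 3.55 CPM in the lower-dose mice and at 3.36, 9.79 and 32.1 CPM (lowest, median and highest) at PT 80 ppm. The groups overlapped in 1 mouse. Abcd2, a peroxisomal transporter of very long chain fatty acids, rose by 1.86 ± 0.39, and Lpin1, a phosphatidate phosphatase, by 1.89 ± 0.36. Acadm and Ehhadh, enzymes of mitochondrial and peroxisomal oxidation, rose by 0.58 ± 0.11 and 0.71 ± 0.22. The male-biased Cyp4a12a and Cyp4a12b fell by 1.60 and 1.36 on the log2 scale, in the direction opposite to Cyp4a10, and the lipid droplet coat Plin2 fell by 1.09. Cyp4a12b did not pass without PT 80 ppm mouse 1, 2 or 3 (edgeR adjusted p = 0.0596 to 0.0721), and Plin2 was under 2-fold without PT 80 ppm mouse 1 or 2 (-0.84 and -0.92).

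**Figure D3:**
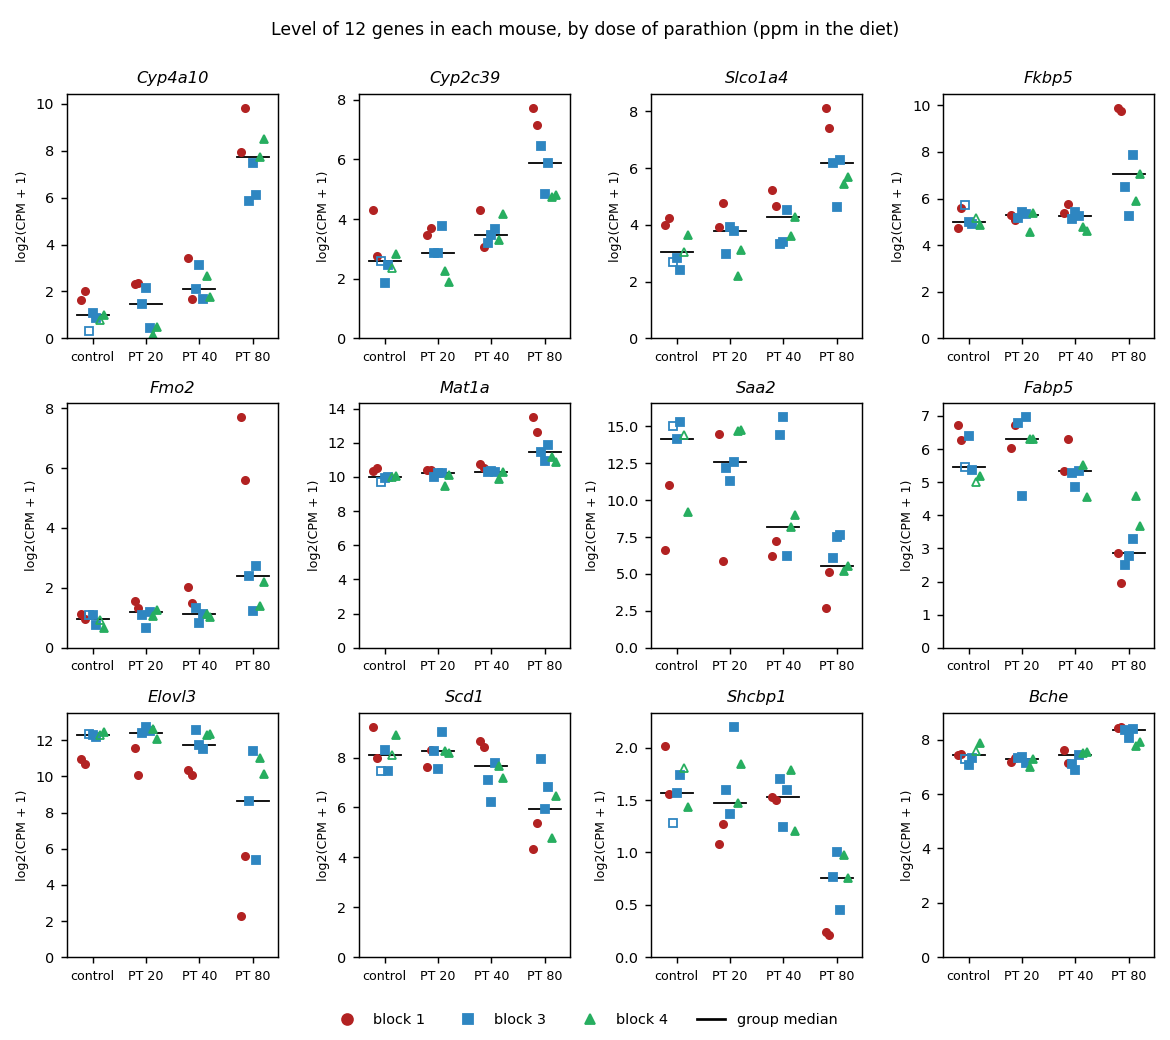
Levels of genes described in the text in the control mice (0 ppm) and at PT 20, 40 and 80 ppm on the y axis as log2(CPM + 1); each point is 1 mouse, color and shape give its block, open points are control mice whose RNA was isolated by EPA, and the black line is the group median. Cyp4a10 separates the 7 PT 80 ppm mice from all 14 lower-dose mice, whereas Saa2 spans 57.5 to 50312 CPM within the lower doses.

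Of 37 tested cytochromes P450 and their receptors 18 rose, 4 fell and 15 did not pass, with 7 DEGs higher and 2 lower, the median was 0.65, and 13 rose and 3 fell in blocks 3 and 4. Nr1i3, which encodes CAR, the receptor for phenobarbital-type inducers, was at 119, 180 and 362 CPM (lowest, median and highest) at PT 20 ppm, 253, 314 and 426 CPM at PT 40 ppm and 503, 657 and 1142 CPM at PT 80 ppm. All 7 PT 80 ppm mice lay above all lower-dose mice, and the log2 fold change was 1.35 ± 0.18 (edgeR adjusted p = 9.87e-05). Nr1i2, which encodes PXR, was likewise without overlap, at 55 to 77.4 CPM against 31.2 to 47.6 CPM, with a log2 fold change of 0.64 ± 0.09, less than 2-fold.

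Among the P450s of this list, which does not hold the Cyp4a genes, Cyp2c39 had the highest log2 fold change. It was at 2.67, 6.33 and 12.8 CPM (lowest, median and highest) at PT 20 ppm, 7.40, 10.1 and 18.7 CPM at PT 40 ppm and 26, 57.6 and 211 CPM at PT 80 ppm. The groups did not overlap, and the log2 fold change was 2.72 ± 0.31 (edgeR adjusted p = 2.34e-05). Cyp2c37 rose by 1.69 ± 0.21, Cyp2c54 by 1.45 ± 0.21 and Cyp3a25 by 1.07 ± 0.13. Cyp2e1, a major hepatocyte enzyme for small solvents, lay at 5794 to 15256 CPM in the lower-dose mice and at 15524 to 25683 CPM at PT 80 ppm, again with no overlap (log2 fold change 0.87 ± 0.12, under 2-fold). Por, the reductase that passes electrons to all microsomal P450s, rose by 1.86 ± 0.28, and 4 of 7 mice were above all lower-dose mice. The genes of the Cyp2c and Cyp3a families are close copies, and Cyp3a41a and Cyp3a41b carried the same value in every mouse, so their separate values are uncertain. Both Cyp3a41a and Cyp3a41b count among the 18 members of this list that rose. Cyp2d40 and Cyp2u1 fell by 1.48 and 1.44 on the log2 scale, with 6 and 5 of the 7 mice below all lower-dose mice. Alas1, the first enzyme of heme synthesis, spread over 23.5 to 795 CPM at PT 80 ppm and 27 to 456 CPM below it, and it did not pass (log2 fold change 0.59 ± 0.50, edgeR adjusted p = 0.441, and -0.61 within block 3).

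Cyp2b10, the gene most often used as a readout of CAR in mice, was near 0 in this assay. No lower-dose mouse was above 0.0886 CPM, which is 1 count, and the 7 PT 80 ppm mice, numbered 1 to 7, were at 15.9, 4.25, 0.616, 0.672, 0.370, 0.216 and 0 CPM. Of the 7, 6 lay above the lower-dose mice, and only mice 1 and 2 of block 1 were above 1 CPM.

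Flavin monooxygenases oxidize nitrogen and sulfur compounds, and Fmo1 had the smallest p of its list. Fmo1 was at 63.6 to 97.6 CPM at PT 20 ppm, 59.8 to 109 CPM at PT 40 ppm and 124, 212 and 614 CPM (lowest, median and highest) at PT 80 ppm. The groups did not overlap, and the log2 fold change was 1.53 ± 0.16 (edgeR adjusted p = 1.14e-05). The effect on Fmo1 was 2.25, 1.42 and 0.85 within blocks 1, 3 and 4 (block by dose adjusted p = 0.0391). Fmo2 rose by 3.34 ± 0.58, from at most 3.10 CPM in the lower-dose mice to 206 and 47.6 CPM in PT 80 ppm mice 1 and 2 but 1.34 to 5.64 CPM in the other 5. Its effect within blocks was 5.82, 1.64 and 1.10 (block by dose adjusted p = 0.00142).

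**Figure D4:**
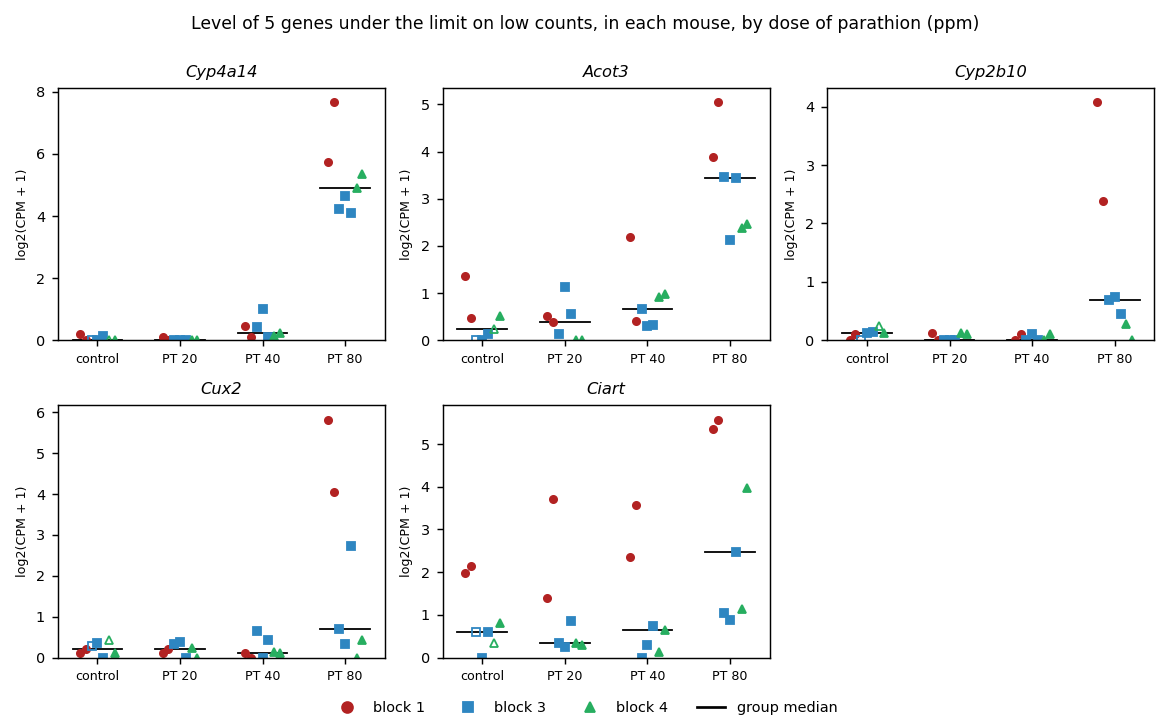
Genes with few or no counts at the lower doses, in the control mice (0 ppm) and at PT 20, 40 and 80 ppm on the y axis as log2(CPM + 1); each point is 1 mouse, color and shape give its block, open points are control mice isolated by EPA, and the black line is the group median. Cyp4a14 was 16.2 to 203 CPM in all 7 PT 80 ppm mice, whereas Cux2 was 0 to 55.5 CPM in them.

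Among 46 tested flavin monooxygenases and conjugating enzymes, 13 rose and 9 fell, 8 and 4 as DEGs, and the median of 0.07 was close to that of all genes. Blocks 3 and 4 alone had 10 that rose and 3 that fell. Gsta2, a glutathione transferase, rose by 1.54 ± 0.19 (edgeR adjusted p = 4.55e-05), from 0.914 to 4.09 CPM over the lower-dose mice to 4.07 to 12.5 CPM. Ugt1a1, which conjugates bilirubin, rose by 0.84 ± 0.10, and the sulfotransferases Sult1a1 and Sult1d1 rose by 1.09 ± 0.16 and 1.58 ± 0.32, with Sult1d1 at 3.24, 1.14 and 0.02 within blocks (block by dose adjusted p = 0.000714). Sult1a1 and Nqo1, a quinone reductase that rose by 1.15 ± 0.20, came just under 2-fold without PT 80 ppm mouse 1 (0.99 and 0.94). Gstp1 fell by 1.20 on the log2 scale, and Gstp-ps, an annotated pseudogene of the same family, fell by 1.07, from 1181 to 1887 CPM in the lower-dose mice to 421 to 1112 CPM without overlap. Gstp1, Gstp2 and Gstp-ps are near-identical, so reads could be split between them. Gstp-ps was also just under 2-fold without PT 80 ppm mouse 2 or mouse 5 (-0.98 and -0.97).

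Sult1e1, the estrogen sulfotransferase, shows how unequal single mice were. PT 80 ppm mice 1 to 7 were at 3441, 39.6, 4.75, 1.26, 8.22, 0.216 and 1.99 CPM, while the lower-dose mice lay at 0.529 to 3.85 CPM. Mouse 1 was far above the rest and mouse 6 below every lower-dose mouse. The log2 fold change of 4.00 ± 1.52 did not pass (edgeR adjusted p = 0.0708), and the effect differed between blocks (9.81, 0.97 and -0.72, block by dose adjusted p = 0.00144).

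Of 30 tested esterases and organophosphate hydrolases 4 rose, 4 fell and 22 did not pass, with no DEG higher and 2 lower, and a median of -0.11. With block 1 left out, 2 rose and 3 fell. Bche, the butyrylcholinesterase that liver releases into plasma, was at 125, 155 and 165 CPM (lowest, median and highest) at PT 20 ppm, 118, 172 and 194 CPM at PT 40 ppm and 217, 327 and 357 CPM at PT 80 ppm. The groups did not overlap, and the rise was 0.84 ± 0.09 (edgeR adjusted p = 1.48e-05), which is under 2-fold. Pon1, paraoxonase 1, rose by 0.66 ± 0.13 (edgeR adjusted p = 0.00177), from 124 to 233 CPM to 176 to 365 CPM, and 6 of 7 mice lay above all lower-dose mice. The carboxylesterases Ces4a, Ces2e and Ces3b fell by 2.09, 1.15 and 0.61 on the log2 scale. Ces2e was under 2-fold without PT 80 ppm mouse 1 (-0.91), and Ces2 family members share sequence, so their separate values are uncertain. The related Ces2d-ps and Gm8798, both annotated near the Ces2 genes on chromosome 8, fell by 2.66 and 2.78.

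Ache, acetylcholinesterase (chromosome 5, 137285781 to 137292728 of GRCm39), is the target of paraoxon but was hardly expressed in liver and fell under the count limit. It was at 0.223 to 0.966 CPM at PT 20 ppm, 0.0815 to 0.832 CPM at PT 40 ppm and 0.184, 0.401 and 0.739 CPM (lowest, median and highest) at PT 80 ppm. The 3 groups overlapped fully. Mean log2(CPM + 1) was 0.497 ± 0.174 (SD, n = 7) at PT 80 ppm and 0.460 ± 0.260 (SD, n = 14) at the lower doses, and the two-sided exact permutation p was 0.735. No difference in the mRNA was detected at these low counts.

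Of 26 tested genes of bile acid synthesis and transport 12 rose and 3 fell, 5 and 1 as DEGs, with a median of 0.33 that was 0.40, 0.39 and 0.29 in blocks 1, 3 and 4, and 7 rose and 0 fell in blocks 3 and 4. Slco1a4, an organic anion uptake transporter, was at 3.63, 12.9 and 25.9 CPM (lowest, median and highest) at PT 20 ppm, 9.08, 18.5 and 36.2 CPM at PT 40 ppm and 23.6, 70.9 and 277 CPM at PT 80 ppm. Mouse 4 of the 7 overlapped the lower doses, and the log2 fold change was 2.41 ± 0.27 (edgeR adjusted p = 1.48e-05). Abcc3, which exports conjugates into blood, was at 3.72 to 15 CPM in the lower-dose mice and at 19.1 to 37.1 CPM at PT 80 ppm. It did not overlap, rose by 1.62 ± 0.22 and was even across blocks (1.51, 1.75 and 1.53). Cyp7a1, the rate-limiting enzyme of bile acid synthesis, rose by 1.75 ± 0.27 and Cyp39a1, an oxysterol hydroxylase, by 2.15 ± 0.36. Klb, the co-receptor for FGF15, rose by 1.29 ± 0.18. Cyp7b1, a male-biased enzyme of the alternative pathway, fell by 1.02 on the log2 scale and no longer passed without any of 14 single mice (edgeR adjusted p = 0.0524 to 0.107).

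**Figure D5:**
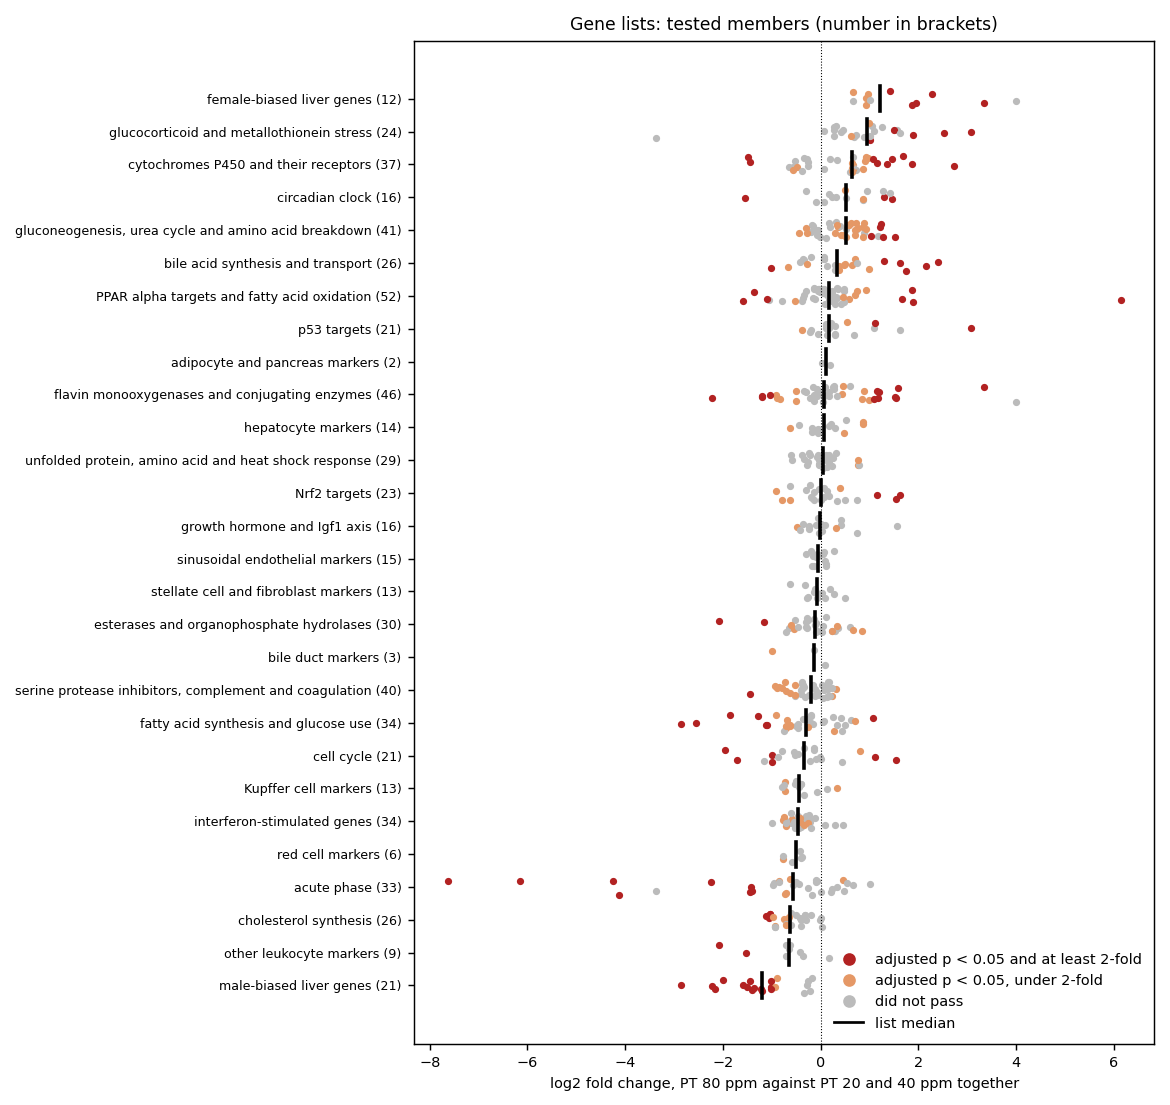
Log2 fold changes (PT 80 ppm minus PT 20 and 40 ppm, x axis) of the tested members of each gene list (y axis); each point is 1 gene, red for DEGs, orange for an adjusted p under 0.05 with less than a 2-fold change and grey for the others, and the black mark is the list's median. Male-biased genes have a median of -1.20 and female-biased genes of 1.21, while all genes tested have -0.007.

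Of 24 tested glucocorticoid-responsive and metallothionein genes 7 rose and 0 fell, 5 as DEGs, with a median of 0.94. The median was 1.77, 0.42 and 0.08 within blocks 1, 3 and 4, and without block 1 there were 4 that rose and 0 that fell. Fkbp5, a chaperone of the glucocorticoid receptor and one of its targets, was at 23 to 41.8 CPM at PT 20 ppm, 23.3 to 52.8 CPM at PT 40 ppm and 951, 875, 89.7, 36.9, 231, 58.6 and 131 CPM in PT 80 ppm mice 1 to 7. Both block 1 mice were highest and mouse 4 alone lay among the lower doses. Its log2 fold change was 2.53 ± 0.39 (edgeR adjusted p = 0.000330), and the effect differed between blocks (block by dose adjusted p = 0.0117). Gadd45b, a stress-induced gene, rose by 3.07 ± 0.58, with 5 of 7 mice above all lower-dose mice and 5.70, 1.80 and 1.49 within blocks (block by dose adjusted p = 0.0253). Zbtb16 and Tsc22d3, both induced by glucocorticoids, rose by 1.49 ± 0.29 and 1.01 ± 0.21, the latter under 2-fold without any of 8 single mice (0.78 to 0.998).

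Genes of gluconeogenesis, the urea cycle and amino acid breakdown had 22 of 41 tested members that rose and 3 that fell, of which 5 and 0 were DEGs, with a median of 0.51. The median was 1.06 in block 1, 0.37 in block 3 and -0.03 in block 4, and in blocks 3 and 4 together 6 rose and 1 fell. Mat1a, which makes S-adenosylmethionine in liver, was at 700, 1194 and 1352 CPM (lowest, median and highest) at PT 20 ppm, 942, 1253 and 1759 CPM at PT 40 ppm and 1890, 2846 and 11558 CPM at PT 80 ppm. The groups did not overlap, and it rose by 1.53 ± 0.19 (edgeR adjusted p = 5.57e-05), with 2.53, 1.07 and 1.04 within blocks. Cth, which makes cysteine from cystathionine, and Asl, a urea cycle enzyme, rose by 1.28 ± 0.23 and 1.21 ± 0.22, and Slc7a2, an arginine transporter, by 1.03 ± 0.20. Asl was 2.44, 0.87 and 0.23 within blocks 1, 3 and 4 (block by dose adjusted p = 0.00109). Cth was 2.35, 1.19 and -0.000142 (block by dose adjusted p = 0.00291), with block 4 mice 6 and 7 at 104 and 119 CPM among lower-dose mice at 87.2 to 132 CPM. Slc7a2 was under 2-fold without any of PT 20 ppm mouse 1, PT 40 ppm mouse 1 or 6, or PT 80 ppm mouse 1 (0.92 to 1.00). Arg1, Ass1 and Tdo2 rose by 0.70 ± 0.19, 0.87 ± 0.23 and 0.61 ± 0.15, and in block 4 they were -0.11, -0.55 and 0.15.

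Of 26 tested cholesterol synthesis genes 9 fell, 0 rose and 17 did not pass, with 4 DEGs, and the median of -0.62 was -1.71, -0.48 and -0.21 within blocks 1, 3 and 4. Without block 1, 2 fell, 0 rose and none was a DEG, and for 8 members the effect differed between blocks. Dhcr7, the last enzyme of the pathway, was at 20.6 to 43.8 CPM in the lower-dose mice and at 7.45, 17.4 and 33.5 CPM (lowest, median and highest) at PT 80 ppm. PT 80 ppm mouse 3 lay among the lower-dose mice and the other 6 below all of them, with a log2 fold change of -1.11 ± 0.20 (edgeR adjusted p = 0.00103). Pmvk, Cyp51 and Nsdhl fell by 1.05, 1.04 and 1.04 on the log2 scale, and Hmgcs1, the first committed step, by 0.93. For Nsdhl, PT 80 ppm mouse 3 was at 29.1 CPM, above all lower-dose mice (16.3 to 28.2 CPM), and the other 6 were below all of them. For Pmvk mouse 3 was at 118 CPM, among lower-dose mice at 45 to 159 CPM. All 4 DEGs were under 2-fold without PT 80 ppm mouse 1 (Dhcr7 -0.97, Pmvk -0.90, Cyp51 -0.80 and Nsdhl -0.80), and Pmvk also without PT 20 ppm mouse 5 or PT 80 ppm mouse 4 or 5, Cyp51 without PT 40 ppm mouse 4 or PT 80 ppm mouse 2, and Nsdhl without PT 40 ppm mouse 2 or PT 80 ppm mouse 2 or 5 (-0.89 to -0.997).

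Fatty acid synthesis and glucose use had 13 of 34 tested members that fell and 3 that rose, 6 and 1 as DEGs, with a median of -0.31. Block 1 aside, 3 fell and 2 rose. Elovl5, a fatty acid elongase, was at 169 to 305 CPM in the lower-dose mice and at 29.6, 126 and 163 CPM (lowest, median and highest) at PT 80 ppm. The groups did not overlap, and it fell by 1.12 on the log2 scale (edgeR adjusted p = 0.000928, -0.92 without PT 80 ppm mouse 1). Scd1, the stearoyl-CoA desaturase, fell by 1.86, and Pnpla3, a lipid droplet enzyme, by 2.56, with 6 of 7 mice below all lower-dose mice and near-equal effects in the 3 blocks (-2.43, -2.59 and -2.66). Acss2 and Acacb, which supply and carboxylate acetyl-CoA, fell by 1.10 and 1.29, the former under 2-fold without PT 80 ppm mouse 6 (-0.97). Fabp5, a fatty acid binding protein outside the list, fell by 2.98, from 22.4 to 124 CPM to 2.89 to 23.2 CPM.

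Most tested male-biased liver genes fell at PT 80 ppm and most tested female-biased liver genes rose. In male mice the pulsed release of growth hormone keeps many of these genes at the male level. Of 21 tested male-biased genes 16 fell and 0 rose, 14 as DEGs, with a median of -1.20, and of 12 tested female-biased genes 9 rose and 0 fell, 5 as DEGs, with a median of 1.21. The male-biased median was -1.94, -1.49 and -0.23 within blocks 1, 3 and 4, and the female-biased median 1.55, 0.99 and 0.80. In blocks 3 and 4, 5 male-biased genes fell and 6 female-biased genes rose, and Cyp4a12a, Cyp4a12b, Elovl3, Cyp2u1, Gstp1, Cyp7b1, Ugt2b38, Abcd2, Fmo2, Cyp2c40, Cyp3a16, Cyp3a41a and Cyp3a41b stand in other lists as well. Cyp3a41a and Cyp3a41b both count among the 9 female-biased genes that rose, though they carried the same value in every mouse.

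Elovl3, a male-biased fatty acid elongase, was at 1076, 5449 and 6892 CPM (lowest, median and highest) at PT 20 ppm, 1077, 3434 and 6003 CPM at PT 40 ppm and 3.86, 392 and 2661 CPM at PT 80 ppm. In Elovl3, 4 of the 7 PT 80 ppm mice were below all lower-dose mice, and it fell by 2.85 on the log2 scale (edgeR adjusted p = 0.00938). Hsd3b5, a male-specific steroid reductase, was at 33.5 to 68.5 CPM in the lower-dose mice and at 0.368, 3.13, 9.33, 29.6, 9.24, 49.6 and 52.8 CPM in PT 80 ppm mice 1 to 7. Both block 4 mice (6 and 7) lay among the lower doses, and the fall of 1.50 came with effects of -5.14, -1.48 and 0.08 within blocks (block by dose adjusted p = 0.000725). Hsd3b5 did not pass without PT 80 ppm mouse 2, 3 or 5 (edgeR adjusted p = 0.0657 to 0.0776). Selenbp2 fell by 1.22 and Cyp2u1 by 1.44, while the pheromone-binding Mup20 fell by 1.02 and no longer passed without any of 13 single mice (edgeR adjusted p = 0.05003 to 0.111). Mup genes are near-identical, so their separate values are uncertain. Gna14, a G protein subunit, fell by 1.02 and was under 2-fold without any of PT 20 ppm mouse 1, PT 40 ppm mouse 4 or 6, or PT 80 ppm mouse 1, 2, 6 or 7 (-0.93 to -0.99).

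Among the female-biased genes, Nipal1, a magnesium transporter, rose by 2.28 ± 0.45, from 0.197 to 2.59 CPM to 1.90 to 10.5 CPM, and Atp6v0d2, a proton pump subunit, by 1.96 ± 0.41. Cux2, a female-specific liver transcription factor that was under the count limit, was at 0 to 0.583 CPM in the lower-dose mice and at 55.5, 15.5, 0.616, 0.252, 5.64, 0 and 0.346 CPM in PT 80 ppm mice 1 to 7. It was highest in both block 1 mice and mouse 5, while mice 4, 6 and 7 lay among the lower doses. Of the growth hormone axis, 1 of 16 tested rose and 1 fell (0 and 0 in blocks 3 and 4), with a median of -0.01. Igf1, its main liver output, was at 58.2 to 87.4 CPM in the lower-dose mice and 52.3 to 97.8 CPM at PT 80 ppm, with a log2 fold change of -0.03 ± 0.10 (edgeR adjusted p = 0.878).

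The serum amyloid A genes, which hepatocytes make in the acute phase of inflammation, had the largest falls. Their promoters are shown because the 3 genes stand close together on chromosome 7 and were lower together. The sequences are the 250 bases before each start as given by RefSeq (GRCm38.p6, a build other than the GRCm39 of the counts), and capitals mark the letters TTNNGNAA, a C/EBP-type motif, searched on both strands.
Saa1 (chr7:46742981-46743230, minus strand): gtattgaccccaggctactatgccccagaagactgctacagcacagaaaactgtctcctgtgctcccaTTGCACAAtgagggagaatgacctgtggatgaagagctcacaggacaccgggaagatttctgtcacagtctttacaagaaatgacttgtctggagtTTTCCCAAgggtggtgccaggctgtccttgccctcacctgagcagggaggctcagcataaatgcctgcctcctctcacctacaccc
Saa2 (chr7:46751583-46751832, plus strand): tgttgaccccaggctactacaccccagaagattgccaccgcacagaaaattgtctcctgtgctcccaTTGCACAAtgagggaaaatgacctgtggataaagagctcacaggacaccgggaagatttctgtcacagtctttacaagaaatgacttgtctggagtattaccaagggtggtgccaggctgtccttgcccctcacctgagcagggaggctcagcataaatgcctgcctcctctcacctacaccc
Saa3 (chr7:46715677-46715926, minus strand): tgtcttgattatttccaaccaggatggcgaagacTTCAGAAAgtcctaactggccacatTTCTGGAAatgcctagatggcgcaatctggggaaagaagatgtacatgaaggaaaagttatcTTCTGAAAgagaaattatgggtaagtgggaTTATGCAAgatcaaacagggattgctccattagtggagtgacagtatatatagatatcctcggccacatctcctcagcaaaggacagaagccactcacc

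Saa1 and Saa2 matched in 95.6% of 249 aligned bases and Saa1 and Saa3 in 56%. The letters stood 2 times before Saa1, 1 time before Saa2 and 4 times before Saa3, and in 36.8% of 32851 promoters of that length. They were found in 37% of 81 promoters of the DEGs that were higher and 38.5% of 96 promoters of those that were lower, from the 152 of 233 DEGs with an entry, some of which have several promoters. A match of letters is a description and says nothing of binding.

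Saa2 (ENSMUSG00000057465, chromosome 7, 46401214 to 46403737 of GRCm39) was at 57.5, 6079 and 27298 CPM (lowest, median and highest) at PT 20 ppm, 74, 295 and 50312 CPM at PT 40 ppm and 5.52, 45.1 and 196 CPM at PT 80 ppm. Levels within each lower dose spanned more than 2 orders of magnitude, as did the controls (99.8 to 40229 CPM), and 4 of the 7 PT 80 ppm mice lay below all lower-dose mice. Saa2 fell by 7.63 on the log2 scale with an SE of 1.61 (edgeR adjusted p = 0.00363), with near-equal effects within blocks (-8.26, -6.83 and -8.50). Saa1 fell by 6.15 with an SE of 1.25 (edgeR adjusted p = 0.00295), from 150 to 36144 CPM to 8.92 to 647 CPM, and Saa3, made by macrophages as well, fell by 4.26, from 5.79 to 462 CPM to 2.39 to 9.07 CPM. Saa1 and Saa2 are near-copies, so reads could be split between them.

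Of 33 tested acute phase genes 12 fell and 1 rose, 8 and 0 as DEGs, with a median of -0.56 that was -0.39, -0.66 and -0.70 within blocks 1, 3 and 4. In blocks 3 and 4 there were 4 that fell and 0 that rose. Orm2, an orosomucoid, fell by 4.12, from 5.08 to 860 CPM to 3.85 to 47.1 CPM, and did not pass without PT 20 ppm mouse 1 (-3.08, edgeR adjusted p = 0.0705) or PT 40 ppm mouse 4 (-3.38, edgeR adjusted p = 0.0534). Its medians were 82.9, 13.4 and 6.60 CPM at PT 20, 40 and 80 ppm. Against PT 40 ppm alone Orm2 did not pass (-2.97 ± 1.23, edgeR adjusted p = 0.143). A2m, a protease inhibitor, fell by 2.25 and Steap4, a metalloreductase, by 1.44. Hp, haptoglobin, did not pass (log2 fold change -0.96 ± 0.36, edgeR adjusted p = 0.0695), nor did Lcn2, lipocalin 2 (-3.37 ± 1.43, edgeR adjusted p = 0.105), whose lower-dose mice ran from 9.14 to 5534 CPM.

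Complement and coagulation genes had 10 of 40 tested members that fell and 2 that rose, 1 and 0 as DEGs, with a median of -0.20, and in blocks 3 and 4 there were 5 and 1. C9, a component of the membrane attack complex, fell by 1.45, from 3970 to 9441 CPM to 586, 2580 and 6127 CPM (lowest, median and highest), and 6 of 7 mice were below all lower-dose mice. Of 34 tested interferon-stimulated genes 8 fell and 0 rose, none as a DEG, and the median of -0.46 was -1.44, -0.32 and -0.03 within blocks. Without block 1, 3 of them fell and 0 rose. Bst2, an antiviral membrane protein, fell by 0.75, from 24.9 to 35.7 CPM to 13.9 to 27.5 CPM.

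Markers of blood and immune cells were measured beside these groups. Of 13 tested Kupffer cell markers 1 rose and 2 fell (0 and 0 in blocks 3 and 4), with a median of -0.44, and their sum was 258 to 518 CPM at PT 20 ppm, 208 to 350 CPM at PT 40 ppm and 191 to 379 CPM at PT 80 ppm, with no marker at 0. Of 9 tested markers of other leukocytes 2 fell (1 in blocks 3 and 4), with a median of -0.65 and sums of 44.9 to 97.8, 41.5 to 56.5 and 17.5 to 70.8 CPM. Cd8a and Klrb1c had 3 or fewer counts in all 21 mice. Ighm, an antibody heavy chain of B cells, fell by 2.09, from 2.41 to 19.1 CPM to 0.692 to 3.05 CPM, and Cd4 by 1.53, from 0.652 to 2.66 CPM to 0 to 1.30 CPM. Their part in the falls of acute phase, complement and interferon genes was not tested. Of 15 sinusoidal endothelial and 13 stellate cell markers tested none passed, with medians of -0.06 and -0.08, and Bmp2 and Dcn, those with the smallest p, had log2 fold changes of 0.28 ± 0.11 (edgeR adjusted p = 0.0833) and 0.28 ± 0.11 (edgeR adjusted p = 0.0771). Of the bile duct markers 3 were tested and Spp1, osteopontin, fell by 1.00. No bile duct, red cell, endothelial or stellate marker passed in blocks 3 and 4. Hbb-bs, a globin, fell by 0.78 and was among 6 tested red cell markers with a median of -0.50.

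Cell cycle genes moved in both directions. Of 21 tested, 3 rose and 4 fell, 2 and 4 as DEGs, with a median of -0.35, and in blocks 3 and 4 there were 1 and 2. Tk1, thymidine kinase, was at 2.63 to 11.4 CPM at PT 20 ppm, 4.33 to 18.7 CPM at PT 40 ppm and 11.5, 17.9 and 52.3 CPM (lowest, median and highest) at PT 80 ppm. Of the 7 PT 80 ppm mice 3 were above all lower-dose mice, and it rose by 1.54 ± 0.22 (edgeR adjusted p = 0.000156). Top2a, a topoisomerase of dividing cells, fell by 1.71, from 1.28 to 3.96 CPM to 0.0919 to 1.34 CPM, and Cdc20, an activator of mitotic exit, by 1.96. Cdc20 went from 0.244 to 1.82 CPM to 0 to 0.440 CPM, which is 0 to 5 counts in a PT 80 ppm mouse. Mcm2, a subunit of the replicative helicase, fell by 1.00 and was under 2-fold without any of 11 single mice (-0.95 to -0.997).

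Clock genes had 4 of 16 tested members that rose and 1 that fell, 2 and 1 as DEGs, with a median of 0.51, and 4 that rose and 0 that fell in blocks 3 and 4. Hlf, a clock output factor, rose by 1.30 ± 0.22, from 0.761 to 5.57 CPM to 1.40 to 18.7 CPM, and 2 of 7 mice lay above all lower-dose mice. Npas2 fell by 1.54, from 0 to 1.98 CPM to 0 to 0.968 CPM, and Per3 rose by 1.45 ± 0.47 (edgeR adjusted p = 0.0375), although its lower-dose mice spanned 0.116 to 20.8 CPM and every PT 80 ppm mouse lay within that range. Per3 no longer passed without any 1 of PT 20 ppm mice 1, 3, 4, 6 and 7, PT 40 ppm mice 3, 4, 6 and 7 and PT 80 ppm mice 4, 5 and 7 (edgeR adjusted p = 0.0507 to 0.109). Hour of sampling is not a label here and was not tested.

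Other stress responses had list medians of 0.01 to 0.17, against -0.007 for all genes tested. Of 21 tested p53 targets 3 rose and 1 fell (2 and 1 in blocks 3 and 4), 2 and 0 as DEGs, with a median of 0.17. That median was 0.34, 0.15 and -0.03 within blocks 1, 3 and 4. The 2 DEGs were Gadd45b, given above with the glucocorticoid-responsive genes, and Trp53inp1. Trp53inp1, a p53-induced nuclear protein, rose by 1.11 ± 0.33 and fell short of 2-fold (0.63) without PT 80 ppm mouse 1, which was at 408 CPM against 36.8 to 119 CPM in the other 6. It also failed the test without PT 20 ppm mouse 1 or 2 or PT 40 ppm mouse 1 or 2 (edgeR adjusted p = 0.0516 to 0.0545). Cdkn1a, the p21 cell cycle inhibitor, did not pass (log2 fold change 1.10 ± 0.91, edgeR adjusted p = 0.422) and ran opposite ways within blocks (5.71, -1.35 and -2.21, block by dose adjusted p = 0.00257), being -0.49 without PT 80 ppm mouse 1. Of 29 tested genes of the unfolded protein, amino acid and heat shock responses 2 rose (0 in blocks 3 and 4), among them the chaperone Hspa8 (0.76 ± 0.18), with a median of 0.04. Of 23 tested Nrf2 targets 4 rose and 3 fell (3 and 1 in blocks 3 and 4), 3 and 0 as DEGs, with a median of 0.01. The 3 DEGs were Gsta2, Nqo1 and Abcc3, given above with other lists. Of all genes tested 0.989% were DEGs that were higher.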

How the data were processed

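Whole-liver RNA of 84 mice in 12 groups of 7 was profiled by TempO-Seq, and the 21 parathion mice isolated by EA were compared here. The deposited values are estimated counts per gene that the authors made with the Partek E/M quantifier, after alignment with STAR, and the submitters' processing notes name the build mm39. Of these counts 18.7% were not whole, and all were rounded before testing. The count table holds 17695 gene IDs, of which 17660 matched the GENCODE annotation of GRCm39, the source of names and coordinates. A second table deposited by the authors holds log2 expression from which differences of block and isolator had been removed, and it is treated here as a score. In the control and parathion groups its block means differed from the group mean by at most 5e-05 for any gene, so the alternative using these values is not independent.

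Genes with a median count above 8 over the 84 mice were tested with edgeR 4.0.16 (R 4.3.3; TMM, glmQLFit and glmQLFTest), block as a covariate and Benjamini-Hochberg adjustment over all tested genes. Without this limit 17095 genes were tested, which is how the genes under it were fitted. PT 80 ppm against each lower dose came from a fit of 3 dose groups, and the block by dose term from a fit with the interaction. Ache was tested by a two-sided exact permutation of log2(CPM + 1). Alternatives used DESeq2 1.42.0, limma 3.58.1, other filters and scalings, other samples and leaving out each mouse. The code was tested on simulated data. PCR without molecular identifiers means that floors of 3 counts cover counting error only.

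The gene lists, the members and the rule for named genes were chosen with earlier results of these data known. The rule took the 8 DEGs with the highest and the 8 with the lowest fold change, the 8 with the smallest p in each direction, up to 4 DEGs of each of 28 lists (or the member with the smallest p), 12 genes set by name and 4 genes of the interaction. Other genes named were chosen after their values were seen. Some genes stand in several lists. A gene of the lists is not reported here. The samples are labelled as separate mice, no 2 of the 21 had identical counts, and the closest pair of replicates differed by a chi-square of 13.7 per degree of freedom. Replicates carry no number in the labels, and the block is what the groups share. Genes with near-identical copies could have their reads split.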

Additional observations from a re-analysis of the deposited data

Results flagged for a closer look

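In 15 of 276 groups of 7 mice examined over the named genes, the highest or lowest mouse stood apart from the rest of its group by more than Dixon's 95% limit on the log2(CPM + 1) scale. Chance alone gives about 1 in 20 such groups. PT 80 ppm mouse 1 held 4 of them: it was highest for Lepr, the leptin receptor (183 CPM, with the next mouse at 9.86 CPM), for Cdkn1a (30.2 CPM, with the next at 2.24 CPM) and for Dcn, a stromal proteoglycan (107 CPM), and lowest for Spp1 (11.4 CPM). PT 20 ppm mouse 2 held another 4: it was lowest for Saa1 (150.1 CPM, with the next mouse at 4167 CPM) and Saa2 (57.5 CPM, with the next at 2572 CPM), and highest for Nqo1 (3.19 CPM) and Asl (705 CPM). PT 20 ppm mouse 6 was lowest for Fkbp5 (23 CPM) and Mat1a (699.9 CPM), and PT 20 ppm mouse 4 for Fabp5 (23 CPM). PT 40 ppm mouse 4 was lowest for Ces2e (213 CPM) and highest for Cyp4a14 (0.985 CPM), PT 40 ppm mouse 3 was lowest for Cth (101 CPM) and PT 40 ppm mouse 2 lowest for Pole4 (36.3 CPM).

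The PT 80 ppm effect differed between blocks for 419 genes by the block by dose term of edgeR, 18 of them named by the rule. The smallest adjusted p values of these 18 belonged to Shld2, a DNA repair factor (1.99e-06), Ncoa4, the ferritin receptor of autophagy (0.000120), Pole4, a polymerase subunit (0.000131), and Atp1b1, a sodium pump subunit (0.000714). They had the largest effects in block 1, with log2 fold changes of 1.81 for Shld2 and 1.40 and 1.48 for the next 2, against -0.29, -0.04 and -0.04 in block 4. The remaining adjusted p values were 0.00109 for Asl, 0.00142 for Fmo2, 0.00144 for Sult1e1, 0.00257 for Cdkn1a, 0.00291 for both Cth and Trp53inp1, 0.0117 for Fkbp5, 0.0155 for Nsdhl and 0.0181 for both Mat1a and Gstp1. Cyp51 had 0.0223, Gadd45b 0.0253, Lepr 0.0338 and Fmo1 0.0391. Of 40 other tested genes in the text, chosen after their values were seen, 12 also differed between blocks: Sult1d1 (adjusted p = 0.000714), Hsd3b5 (0.000725), Ass1 (0.00472), Plin2 (0.0153), Gstp2 (0.0163), Cyp39a1 (0.0353), Tdo2 (0.0412), Tsc22d3 (0.0427), Mup20 (0.0434), Cyp4a12a (0.0480), Ugt2b38 (0.0491) and Arg1 (0.0498). Without PT 80 ppm mouse 1 the log2 fold change of Lepr was 1.07 in place of 2.37.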

How the results depend on the processing

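The 233 DEGs of PT 80 ppm against the lower doses numbered 228 to 277 with DESeq2 (259), RLE scaling (233), a robust fit (230), 3 dose groups (239), the count limit set on the 21 mice (228) and all 84 mice in 1 model (277), 313 with the deposited adjusted values and 141 with limma on log2(CPM + 1). With no count limit there were 338, of which 197 were higher, so that the share of higher genes went from 44.2% to 58.3%. Leaving out each mouse gave 166 to 283, the lowest without PT 80 ppm mouse 1. Within blocks 1, 3 and 4 there were 716, 145 and 5, and with blocks 3 and 4 only, an alternative chosen after seeing the data, 102. The fit without the block had 236, and block is shared by mice of every dose because the study was run in blocks. PT 80 ppm against PT 40 ppm gave 90 with only those 2 groups in the fit, 127 without the block and 203 with DESeq2, in place of 156. PT 80 ppm against PT 20 ppm gave 231 to 331, PT 40 ppm against PT 20 ppm gave 1 with DESeq2 in place of 0, and the block by dose term gave 921 with DESeq2 in place of 419. The Ache difference was 0.037, and 0.069 with a pseudocount of 0.5 and 0.024 CPM without the log.

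Of 92 named genes, 90 were tested and 72 were DEGs. Without any single mouse 56 kept the call, and 16 lost it in at least 1 such fit. In blocks 3 and 4 only, 44 kept it and 28 did not, and with limma 15 did not. Of 23 DEGs in the text chosen after their values were seen, 6 lost the call without a single mouse. Direction changed within block 4 for Cth (-0.000142), Trp53inp1 (-0.0176), Fabp4 (-0.0609), Sult1e1 (-0.72), Cdkn1a (-2.21), Igf1 (0.20), Shld2 (-0.29), Ncoa4 (-0.0384), Pole4 (-0.0355) and Atp1b1 (-0.27), within block 3 for Cdkn1a (-1.35), Alas1 (-0.61), Ncoa4 (-0.38) and Pole4 (-0.11), and within block 1 for Igf1 (0.22). With blocks 3 and 4 only it changed for Cdkn1a (-1.52), Ncoa4 (-0.23) and Pole4 (-0.0661), with limma for Igf1 (0.052), and with the adjusted values for Fabp4 (-0.0581) and Igf1 (0.00095). Leaving out each mouse gave -0.49 to 1.54 for Cdkn1a and -0.10 to 0.063 for Igf1. The cause of these changes was not tested. Levels under 1 CPM rest on about 10 counts or fewer.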

Other observations

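Of the DEGs, 146 stood in none of the lists, and those given here were chosen after their values were seen. Among the genes that rose, the monocarboxylate transporters Slc16a5 and Slc16a7 had log2 fold changes of 3.75 ± 0.43 and 1.31 ± 0.14. Slc16a5 was at 0.163 to 2.42 CPM in the lower-dose mice and at 2.16 to 38.6 CPM at PT 80 ppm, with 5 of 7 mice above all lower-dose mice. Slc16a7 was at 23.7 to 54 CPM and at 64.6 to 145 CPM, without overlap. Bnip3, a mitophagy receptor, rose by 2.31 ± 0.55, from 1.04 to 13.1 CPM to 6.58 to 213 CPM (1.54 without PT 80 ppm mouse 1), and Mfsd2a, a lysophospholipid transporter, by 1.81 ± 0.34. Ccn2, a matricellular protein, rose by 1.69 ± 0.35, from 0.416 to 3.34 CPM to 2.48 to 26.5 CPM. Lepr rose by 2.37 ± 0.56, which was 1.07 without PT 80 ppm mouse 1. The genes with the 8 smallest p values among those that rose also included the predicted gene Gm21973 (1.19 ± 0.13, 32 to 64.7 CPM against 73.6 to 159 CPM, no overlap) and the pseudogene Gm6532 (1.24 ± 0.13), whose reads may be shared with its parent gene.

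Among the genes that fell, Shcbp1, needed for the close of cytokinesis, was at 1.11 to 3.60 CPM in the lower-dose mice and at 0.160 to 1.01 CPM at PT 80 ppm, without overlap (log2 fold change -1.86 ± 0.26). Esco2, a cohesin acetyltransferase, fell by 1.78, Dtl, an adaptor for replication-linked degradation, by 2.16, and Kntc1, a kinetochore protein, by 2.05. These genes lay under 3 CPM in nearly all lower-dose mice, so few counts stand behind them. Slc22a7, an organic anion transporter, fell by 1.57 (6.35 to 15.7 CPM against 0.0919 to 10.5 CPM), and Aqp8, a water channel, fell by 1.78 (87.5 to 563 CPM against 5.52 to 218 CPM). Crybb3, a crystallin, fell by 3.86, from 1.02 to 25.2 CPM to 0.0919 to 1.34 CPM, and Chrna4, a nicotinic acetylcholine receptor subunit, fell by 2.99, from 0.257 to 8.24 CPM to 0 to 1.50 CPM. Nat8f5, an acetyltransferase, fell by 2.67 with near-equal effects in the 3 blocks (-2.85, -2.68 and -2.55). Ccl2, a monocyte chemokine, fell by 2.58. It ran from 1.34 to 86.3 CPM at PT 20 ppm, 0.833 to 6.50 CPM at PT 40 ppm and 0.276 to 3.60 CPM at PT 80 ppm. PT 80 ppm passed against PT 20 ppm (-3.21 ± 0.61, edgeR adjusted p = 0.00254) but not against PT 40 ppm (-1.15 ± 0.66, edgeR adjusted p = 0.289).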
